A study of Mus musculus with 18 samples.

Results

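The genes described here are the cyclins and kinases that act in the G1 phase of the cell cycle and the inhibitors of those kinases, in mouse splenic CD4 T cells. The 10 genes, chosen by name, were the D-type cyclin genes Ccnd1, Ccnd2 and Ccnd3, the E-type cyclin genes Ccne1 and Ccne2, the kinase genes Cdk4 and Cdk6, and the inhibitor genes Cdkn1a, Cdkn1b and Cdkn2c. They were read by 27 probe sets that carried 1 of these symbols alone, of 45101 probe sets on the array, and were 10 of the 18193 genes measured. The value of a gene is that of its brightest probe set over the arrays, and levels are log2 of the intensity plus 16 after quantile normalization, so that a difference of 1 is a 2-fold change.

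The series set wild-type (WT) mice beside mice with a Gli2A transgene (Gli2A Tg) and mice with a Gli2R transgene (Gli2R Tg), all C57BL/6 and aged 9 to 15 weeks. Gli2 is a transcription factor of the Hedgehog pathway, and the question was what the transgenes do to CD4 T cells before and early in activation. Cells were profiled fresh (resting) or after 6 h with antibodies to CD3 and CD28 (stimulated), which gave 6 groups of 3 arrays each. Time in culture differed together with stimulation, so the effects of culture and of the antibodies cannot be told apart. The promoter that drives each transgene, and whether the arrays of a group came from separate mice, are not given in the sources used here.

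In G1, D-type cyclins bind CDK4 or CDK6, and E-type cyclins bind CDK2. Both kinds of complex phosphorylate the retinoblastoma protein, which releases E2F transcription factors and lets S phase genes be transcribed. CDKN2C (p18) binds CDK4 and CDK6 alone, while CDKN1A (p21) and CDKN1B (p27) bind several cyclin and kinase complexes. In T cells, p27 is known as a protein of resting cells that is lost as cells prepare to divide, and cyclin D2 and CDK4 are known to be made early after stimulation.

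Arrays of a group correlated at 0.971 to 0.981 over all genes, and with 3 arrays a group their number limits how precise a difference can be. T cell markers were present: 10 of 12 listed CD4 T cell genes were measured, and Cd4 itself averaged 11.10 in resting WT cells, against a median gene level of 7.06. These markers were lower after stimulation: 7, 6 and 8 of the 10 fell in WT, Gli2A Tg and Gli2R Tg cells (medians -1.40, -1.17 and -1.42), 1 rose in Gli2A Tg cells, and Cd4 fell (-1.30, -1.08 and -1.32). Genes of other cells were also present, and not all of them were lower after stimulation. Of 10 CD8 and natural killer genes, 2 rose with stimulation in each genotype. In WT, Gli2A Tg and Gli2R Tg cells 5, 6 and 6 of these genes fell. The summed intensity of these 10 genes ran from 7320.12 to 11043.1 on resting arrays and from 3391.16 to 5410.49 on stimulated arrays. The summed erythroid and platelet markers were lower after stimulation in WT and Gli2A Tg cells. In Gli2R Tg cells that sum was higher, at 5052.17 to 10189.6 at rest and 11011.5 to 12622.3 after stimulation. Most of its genes did not follow it: of the 10, 1 rose and 4 fell there (median -0.88). A sum weighs bright genes most. The summed intensity of 18 myeloid markers ran from 67247.5 to 160744 on resting arrays and from 2103.83 to 7277.49 on stimulated arrays, and 17 of the 18 were lower after stimulation in each genotype. That of the 10 CD4 T cell markers ran from 85292.2 to 129313 on resting and from 48828 to 56129 on stimulated arrays. Sums of different genes do not give shares of cells. The ratio of the 3' to the 5' Gapdh probe sets, a sign of RNA quality, was 0.709 to 1.13 on resting and 1.71 to 2.79 on stimulated arrays. The part that these shifts play in the stimulation results was not tested, and in bulk samples fewer cells of a type and less RNA per cell cannot be told apart. Both Gli2 probe sets were dim in every group, between 4.11 and 6.08, and did not check the transgenes. Genes of the Y chromosome were expressed on 2 of 3 arrays of resting WT, 1 of 3 of stimulated WT and 2 of 3 of stimulated Gli2R Tg cells, and on no array of the other groups. Resting Gli2A Tg replicate 3 and stimulated Gli2A Tg replicate 2 stood apart from their groups.

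The 3 sequences below are shown because the stimulation results turn on their genes: Cdk4, the kinase gene that rose, Cdk6, its close relative whose probe sets differed, and Cdkn1a, the inhibitor gene that rose. Each is a promoter of RefSeq on GRCm38.p6, 250 bases before to 50 after a transcription start, on the gene's strand. Capitals mark the E-box CACGTG, which Myc with its partner Max can bind, or a p53 site. They lie at chr10:127063285-127063584 (Cdk4, plus strand), chr5:3343643-3343942 (Cdk6, plus strand) and chr17:29090729-29091028 (Cdkn1a, the upstream of its 2 listed starts, plus strand).
Cdk4: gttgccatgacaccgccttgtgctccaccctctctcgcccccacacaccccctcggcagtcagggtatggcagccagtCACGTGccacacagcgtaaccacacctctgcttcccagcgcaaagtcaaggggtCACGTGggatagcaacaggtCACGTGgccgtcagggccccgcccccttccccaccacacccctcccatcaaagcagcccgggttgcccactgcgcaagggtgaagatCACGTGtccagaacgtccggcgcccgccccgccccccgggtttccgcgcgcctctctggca
Cdk6: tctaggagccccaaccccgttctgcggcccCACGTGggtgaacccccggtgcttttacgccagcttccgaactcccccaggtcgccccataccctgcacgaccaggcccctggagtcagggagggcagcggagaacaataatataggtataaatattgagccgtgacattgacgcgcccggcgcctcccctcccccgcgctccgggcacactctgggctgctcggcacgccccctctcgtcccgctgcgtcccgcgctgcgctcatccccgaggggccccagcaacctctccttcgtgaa
Cdkn1a: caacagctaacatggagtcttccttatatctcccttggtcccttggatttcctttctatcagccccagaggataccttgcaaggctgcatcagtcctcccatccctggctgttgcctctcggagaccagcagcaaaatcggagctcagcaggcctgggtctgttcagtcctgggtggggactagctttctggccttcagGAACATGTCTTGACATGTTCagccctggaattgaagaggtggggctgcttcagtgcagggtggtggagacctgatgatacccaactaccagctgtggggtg

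The Cdk4 promoter held 4 copies of CACGTG, at -172, -118, -98 and -11 from the start. At least 1 copy was present in 7.15% of the 32851 promoters in the table, and at least 4 copies in 8 of them (0.0244%). The Cdk6 promoter held 1 copy at -220, and 1 of the 2 Cdkn2c promoters held 1 copy at position 34. The capitals in Cdkn1a, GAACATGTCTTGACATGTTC at -51, are 2 adjoining copies of the p53 element, a kind found in 18 promoters (0.0548%) when both cores are exact and up to 1 other base may differ. For 7 of the 10 genes the table held 10 promoters in all. None of the 10 held the E2F letters TTTCCCGC, TTTGGCGC, TTTCGCGC or TTTGCCGC on either strand, which 2.26% of all promoters held. Of the other letters searched on both strands, the GC box GGGCGG was in 7 of the 10 (35.7% of all promoters), CCAAT in 3 (37.4%), TATAAA in that of Cdk6 (13.6%) and the forkhead letters GTAAACA in 1 of 2 of Ccnd3 (3.65%). The AP-1 letters TGANTCA and the NFAT letters GGAAAA were in none (7.81% and 23.4%). No match overlapped one of another motif. A match is a description of letters, and none of these data measure binding.

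Stimulation for 6 h changed most of the 10 genes, in directions that differed among the D-type cyclins and among the inhibitors. In WT cells 9 of the 10 passed the test (limma, adjusted p under 0.05 over all genes): Ccnd2, Cdk4 and Cdkn1a rose, and Ccnd1, Ccnd3, Ccne1, Ccne2, Cdkn2c and the probe set used for Cdkn1b fell. The same 3 rose in all genotypes, while 5 of the 6 fell in Gli2A Tg cells (not Ccne1) and 4 in Gli2R Tg cells (neither Ccne1 nor Ccne2). Of all genes, 19.7% rose and 22.0% fell in WT cells, 20.2% and 22.8% in Gli2A Tg cells, and 19.8% and 22.5% in Gli2R Tg cells. The median difference of the 10 genes was -1.41, -1.12 and -0.65 in WT, Gli2A Tg and Gli2R Tg cells, beside a median over all genes within 0.01 of 0. Resting and stimulated arrays did not overlap for 9, 8 and 8 of the 10 genes, and for 51.7%, 50.4% and 52.1% of all genes.

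**Figure D1:**
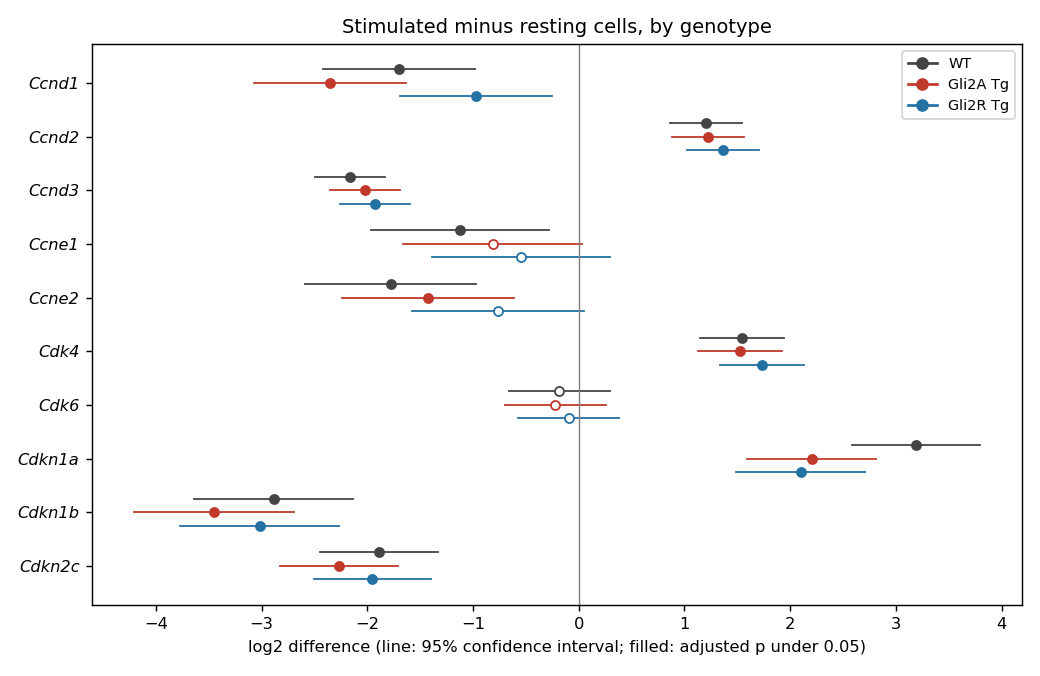
Difference between stimulated and resting cells (log2, horizontal axis) for the 10 genes in WT, Gli2A Tg and Gli2R Tg cells; points are estimates from 3 arrays against 3, lines are 95% confidence intervals, and filled points passed the test. Ccnd2, Cdk4 and Cdkn1a lie to the right of 0 in all 3 genotypes, from 1.20 to 3.19, while Cdk6 lies within 0.22 of 0.

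Among the D-type cyclins, Ccnd2 rose and Ccnd1 and Ccnd3 fell. Ccnd2, the cyclin D that lymphocytes induce with antigen receptor signals, read 13.88, 13.80 and 13.69 on the resting WT arrays and 14.98, 15.00 and 15.00 on the stimulated ones. The resting arrays of Gli2A Tg cells read 13.77, 13.61 and 13.48, and the stimulated ones 15.10, 14.39 and 15.03. In Gli2R Tg cells the levels were 13.62, 13.73 and 13.69 at rest and 15.02, 15.09 and 15.02 with stimulation. Each stimulated array was above each resting array, and stimulated Gli2A Tg replicate 2 was the lowest of the stimulated arrays. The rise was 1.20 ± 0.16 (SE) in WT cells (2.30-fold, adjusted p = 1.78e-05), 1.22 in Gli2A Tg cells (adjusted p = 1.44e-05) and 1.36 in Gli2R Tg cells (adjusted p = 4.98e-06). All 7 Ccnd2 probe sets rose in each genotype, by 0.52 to 2.48. The probe set used was near the top of the scale, where the highest gene mean was 15.68. In each genotype 1416123_at, 1448229_s_at and 1455956_x_at rose more than it did, and 1434745_at and 1430127_a_at rose less. The part that the top of the scale plays in the size of its rise was not tested.

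Ccnd3, a D-type cyclin needed for the expansion of immature T cells, fell in all 3 genotypes. Its resting levels were 11.93, 12.22 and 12.09 in WT, 12.13, 12.26 and 12.06 in Gli2A Tg and 11.75, 11.74 and 12.18 in Gli2R Tg cells. Stimulated levels were 10.19, 9.67 and 9.90, then 10.15, 10.10 and 10.13, then 9.91, 9.90 and 10.09, in the same order of genotypes. No stimulated array came within 1 log2 unit of a resting array. The fall was -2.16 ± 0.16 in WT (4.48-fold, adjusted p = 3.96e-08), -2.02 in Gli2A Tg (adjusted p = 7.02e-08) and -1.93 in Gli2R Tg cells (adjusted p = 1.16e-07). A dimmer probe set, 1438805_at, fell as well, and 1444323_at, dimmer still, did not pass the test in any genotype.

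Ccnd1, the D-type cyclin of many non-lymphoid cells and of low expression in most T cells, read 8.89, 8.49 and 8.79 on resting WT arrays and 6.41, 7.72 and 6.94 on stimulated ones. Gli2A Tg cells had 9.29, 9.68 and 9.37 at rest and 7.60, 7.13 and 6.55 after stimulation. Gli2R Tg cells had 8.65, 8.55 and 8.32 at rest and 7.24, 7.18 and 8.20 after stimulation. The groups did not overlap in any genotype, though the highest stimulated Gli2R Tg array came close to the lowest resting one. The fall was -1.70 ± 0.34 in WT (3.25-fold, adjusted p = 0.000715), -2.35 in Gli2A Tg (5.11-fold, adjusted p = 3.61e-05) and -0.97 in Gli2R Tg cells (1.96-fold, adjusted p = 0.0298). The last call was lost without any 1 of 4 arrays, resting Gli2R Tg replicate 1 or 2 (adjusted p 0.0850 and 0.0708) and stimulated Gli2R Tg replicate 1 or 2 (0.109 and 0.114). All 3 Ccnd1 probe sets fell in each genotype, the furthest at -3.46. The genes most like Ccnd1 across the 18 arrays were Tmem86a, Epb41l3 and Ifitm6 (Pearson r 0.943, 0.942 and 0.933, a description over arrays that share the stimulation difference). The summed myeloid markers fell with stimulation as given above, and their part in the fall of Ccnd1 was not tested.

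**Figure D2:**
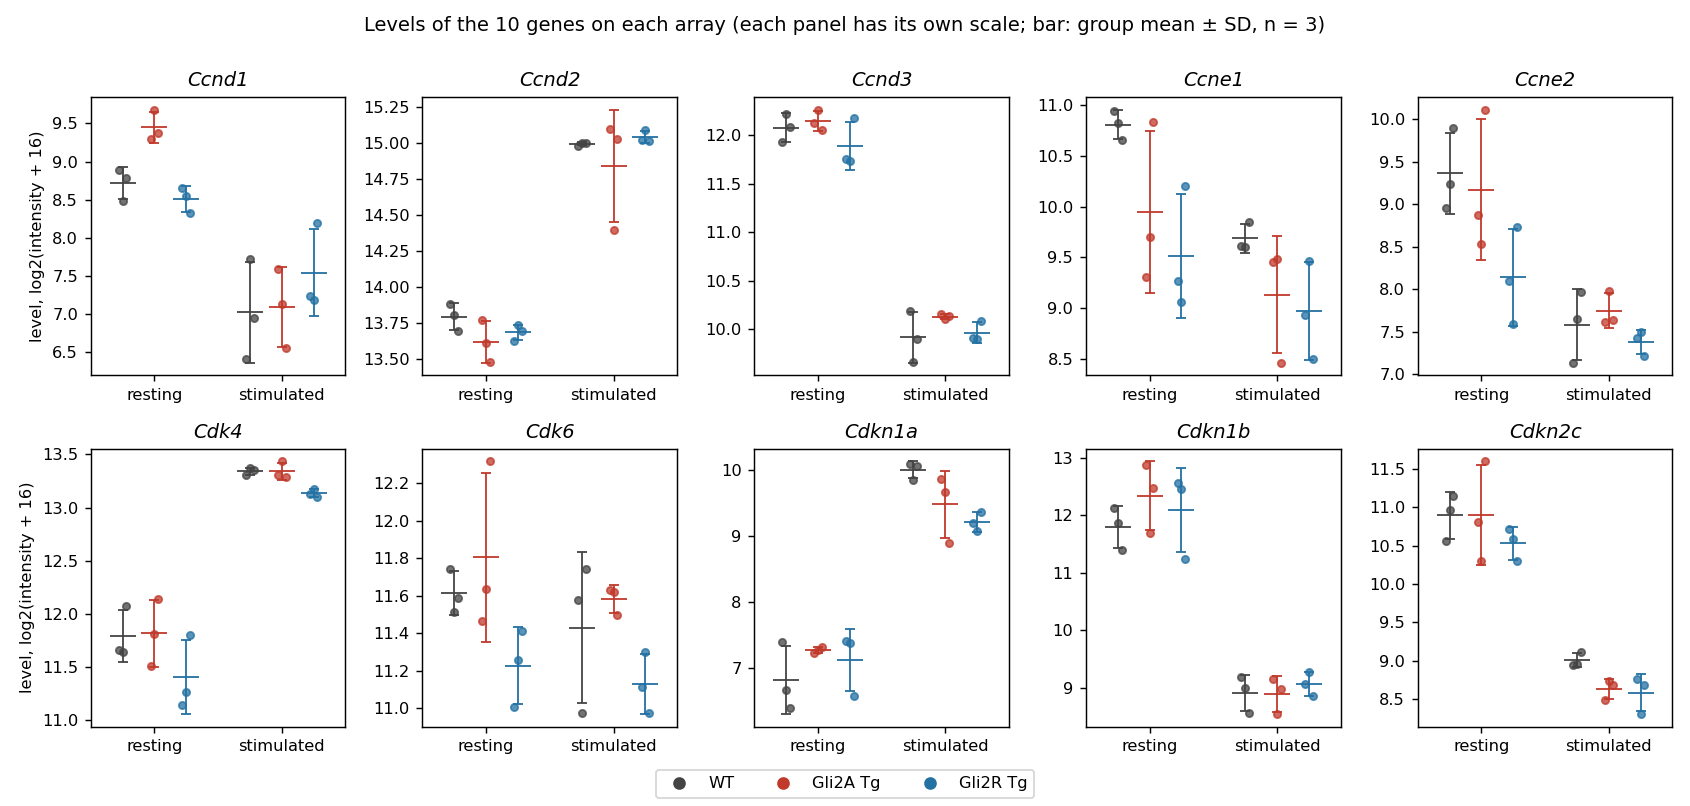
Level of each of the 10 genes (log2 of the intensity plus 16, vertical axis, with its own scale in each panel) on the 18 arrays; points are arrays, and bars are the group mean and SD of 3 arrays. Resting and stimulated WT arrays are apart for 9 genes and overlap for Cdk6, whose group means lie between 11.13 and 11.81.

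The E-type cyclins, partners of CDK2 at the start of S phase, were lower after stimulation. Ccne2 read 8.96, 9.24 and 9.90 at rest and 7.14, 7.65 and 7.97 with stimulation in WT cells. The Gli2A Tg arrays read 8.87, 8.53 and 10.11 at rest and 7.61, 7.98 and 7.64 with stimulation, and the Gli2R Tg arrays 8.09, 7.59 and 8.74 and then 7.43, 7.49 and 7.22. Stimulated arrays were below resting ones in each genotype, by a narrow gap in Gli2R Tg cells. Ccne2 fell in WT (-1.78 ± 0.38, adjusted p = 0.00131) and Gli2A Tg cells (-1.43, adjusted p = 0.00626). In Gli2R Tg cells the difference was -0.76 with a 95% interval of -1.57 to 0.05 and an adjusted p of 0.126. That difference passed the test with the deposited scaling alone (-1.08, adjusted p = 0.0200) and with median centring (-1.03, adjusted p = 0.0225).

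Ccne1 was tightly grouped in WT cells, at 10.95, 10.83 and 10.65 at rest and 9.61, 9.60 and 9.85 with stimulation. It was scattered in the transgenic cells, with resting arrays at 9.30, 9.70 and 10.84 (Gli2A Tg) and 9.26, 9.06 and 10.21 (Gli2R Tg). Their stimulated arrays read 9.45, 9.48 and 8.46 and then 8.93, 9.46 and 8.50, so resting and stimulated arrays overlapped in both. The difference was -1.12 ± 0.39 in WT (2.18-fold, adjusted p = 0.0326), -0.82 in Gli2A Tg (adjusted p = 0.114) and -0.55 in Gli2R Tg cells (adjusted p = 0.303). The WT call was lost when any 1 of the 6 WT arrays was left out (adjusted p 0.0501 to 0.0873). The second Ccne1 probe set, 1416492_at, fell in all 3 genotypes (-2.22, -1.64 and -1.58; adjusted p 0.000232, 0.00258 and 0.00344).

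Of the kinases of D-type cyclins, Cdk4 rose in every genotype. Its levels in WT cells were 11.66, 11.65 and 12.07 at rest and 13.30, 13.37 and 13.35 with stimulation. In Gli2A Tg cells they were 11.51, 11.81 and 12.14 and then 13.30, 13.44 and 13.29, and in Gli2R Tg cells 11.15, 11.27 and 11.80 and then 13.13, 13.18 and 13.10. The stimulated arrays were all above the resting arrays and spread less than they did. Cdk4 rose by 1.55 ± 0.19 in WT (2.92-fold, adjusted p = 6.57e-06), 1.52 in Gli2A Tg (adjusted p = 7.43e-06) and 1.73 in Gli2R Tg cells (adjusted p = 2.05e-06). Its 3 probe sets rose by 1.42 to 1.88. The genes most like it were Mogs, Smim13 and Nhp2 (Pearson r 0.994, 0.991 and 0.990 over 18 arrays), of which Nhp2 encodes a protein of the small nucleolar particles that modify ribosomal RNA. Myc, which can bind the E-box shown above, rose by 2.66, 2.37 and 2.78 in the 3 genotypes. Cdkn2c, which also had an E-box in a promoter, fell in all of them, and no direction is given for Cdk6 below. Any part of Myc in the rise of Cdk4 was not tested.

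Cdk6 did not pass the test with the probe set used, 1435338_at. That probe set read 11.74, 11.51 and 11.59 on resting and 11.58, 10.97 and 11.74 on stimulated WT arrays, which overlapped. The differences were -0.19 ± 0.22 in WT (95% interval -0.66 to 0.29, adjusted p = 0.557), -0.22 in Gli2A Tg cells and -0.10 in Gli2R Tg cells (adjusted p 0.468 and 0.771), and median centring gave 0.13 in WT cells. A second bright probe set, 1455287_at, read 11.09, 10.62 and 10.78 at rest and 12.15, 11.56 and 12.32 with stimulation in WT cells, without overlap. It rose by 1.18, 1.07 and 0.96 in WT, Gli2A Tg and Gli2R Tg cells (adjusted p 0.0115, 0.0198 and 0.0357 over all probe sets). The third, 1460291_at, was dim (mean 5.64) and did not pass the test, at -0.15, -1.67 and -0.15. The probe sets of Cdk6 thus gave different answers on the same arrays, and no direction is given for the gene.

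**Figure D3:**
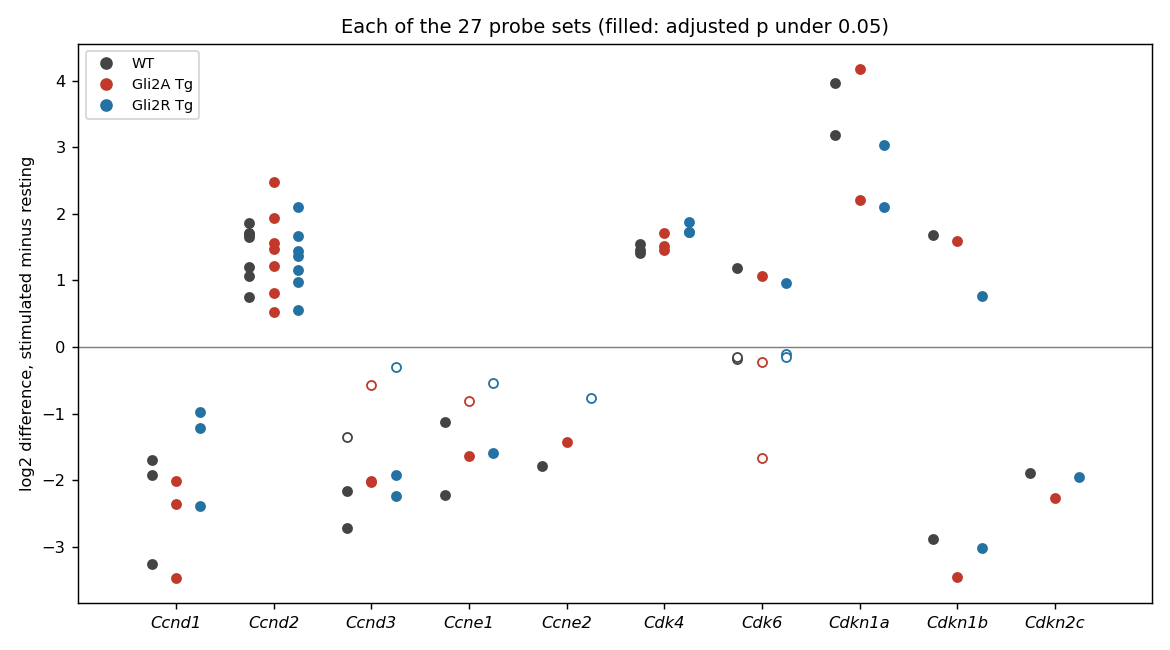
Difference between stimulated and resting cells (log2, vertical axis) for each of the 27 probe sets, by gene and genotype; filled points passed the test over all probe sets. Both Cdkn1b probe sets passed it in each genotype, on opposite sides of 0, and 1 of the 3 Cdk6 probe sets lies above 0 in each genotype.

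The inhibitors went in opposite directions. Cdkn1a, which encodes p21 and is a target of p53, had the largest difference of the 10 genes in WT cells. Its levels there were 7.40, 6.67 and 6.39 at rest and 10.10, 9.86 and 10.07 with stimulation. Gli2A Tg cells read 7.23, 7.28 and 7.32 and then 9.87, 9.68 and 8.90, and Gli2R Tg cells 7.40, 7.37 and 6.58 and then 9.20, 9.08 and 9.37. Every stimulated array was above every resting array by more than 1 log2 unit, and the 3 stimulated Gli2R Tg arrays were all below the 3 of WT cells. Cdkn1a rose by 3.19 ± 0.28 in WT (9.12-fold, adjusted p = 3.31e-07), 2.20 in Gli2A Tg (4.61-fold, adjusted p = 1.31e-05) and 2.10 in Gli2R Tg cells (4.29-fold, adjusted p = 2.17e-05). Its dimmer probe set, 1421679_a_at, rose by 3.96, 4.17 and 3.03.

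Cdkn2c, which encodes p18, fell. It read 10.56, 10.97 and 11.15 on resting and 8.94, 8.96 and 9.11 on stimulated WT arrays. The Gli2A Tg arrays read 10.80, 10.30 and 11.60 and then 8.48, 8.73 and 8.68, and the Gli2R Tg arrays 10.71, 10.59 and 10.30 and then 8.76, 8.30 and 8.68. The stimulated arrays lay below all resting arrays, with the widest resting spread in Gli2A Tg cells. The fall was -1.89 ± 0.26 in WT (3.70-fold, adjusted p = 2.68e-05), -2.27 in Gli2A Tg (4.81-fold, adjusted p = 4.04e-06) and -1.95 in Gli2R Tg cells (3.87-fold, adjusted p = 1.87e-05).

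Cdkn1b, which encodes p27, gave opposite calls with its 2 probe sets. The brighter one, 1434045_at, read 12.13, 11.87 and 11.40 on resting and 9.18, 9.00 and 8.57 on stimulated WT arrays. The dimmer one, 1419497_at, read 6.80, 6.55 and 6.63 on the same resting arrays and 8.09, 8.55 and 8.38 on the same stimulated ones. Neither overlapped between conditions, and they moved in opposite directions in every genotype. The brighter probe set fell, at -2.88, -3.45 and -3.02 in WT, Gli2A Tg and Gli2R Tg cells (7.39, 10.9 and 8.10 as folds; adjusted p 7.86e-06, 1.20e-06 and 4.83e-06). The dimmer one rose by 1.68, 1.60 and 0.77 (adjusted p 1.25e-05, 1.92e-05 and 0.00879 over all probe sets). The mean of both gave -0.60, -0.93 and -1.12 (adjusted p 0.0498, 0.00418 and 0.000987). Where each probe set lies in the transcript was not analysed here, and no direction is given for the gene as a whole.

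Over all 27 probe sets, 14 rose and 10 fell in WT cells, 14 and 9 in Gli2A Tg cells, and 14 and 8 in Gli2R Tg cells. Of the 34945 probe sets tested, 20.0% rose and 19.4% fell in WT, 20.6% and 19.8% in Gli2A Tg, and 19.9% and 19.8% in Gli2R Tg cells. Ccnd2 supplied 7 of the 14 that rose, so probe sets are no count of genes.

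Other genes of the same network were read from lists. Of 13 genes of the retinoblastoma and E2F families, 5 rose and 6 fell in WT cells (median -0.49), 5 and 7 in Gli2A Tg (median -0.88) and 5 and 5 in Gli2R Tg cells (median 0.29). Rbl2, the retinoblastoma relative p130 of non-dividing cells, fell (-3.21, -3.57 and -3.62 in WT, Gli2A Tg and Gli2R Tg cells). E2f5, an E2F that works with the retinoblastoma relatives, rose by 3.08, 3.20 and 3.25. The activating factor E2f2 fell (-2.94, -3.95 and -3.36), as did the repressing factor E2f8 (-1.96, -2.84 and -2.36). Of these 13 genes, 5 rose in all 3 genotypes and 5 fell in all 3.

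Of 6 other kinases and activators of the G1 to S transition, 2 rose and 2 fell in WT cells (median 0.14), and 3 and 2 did so in each transgenic genotype (medians 0.70 and 0.32). Ccna2, the S phase cyclin, fell (-2.78, -2.99 and -2.48), as did Cdk2, the partner of the E-type cyclins (-1.25, -0.88 and -1.13). Cdc25a, a phosphatase that activates CDK2, rose by 1.19, 1.80 and 1.52, and Cdk7, which phosphorylates the activating loop of these kinases, by 1.14, 1.63 and 1.16. Of the 4 other inhibitors of CDKs, Cdkn2d, which encodes p19 of the same family as p18, fell in all genotypes (-3.82, -2.98 and -3.81). Cdkn1c, which encodes p57, rose in WT cells (1.17, adjusted p = 0.00561) and did not pass the test in Gli2A Tg (0.18) or Gli2R Tg cells (0.25). Cdkn2a and Cdkn2b did not pass the test in any genotype (0.09 and 0.25 in WT cells). The median of the 4 was within 0.17 of 0 in each genotype.

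Of 12 measured genes for the ubiquitin-dependent removal of G1 proteins, 4 rose and 4 fell in WT cells (median -0.11), 5 and 4 in Gli2A Tg (median -0.04) and 5 and 3 in Gli2R Tg cells (median 0.15). Cul1, the scaffold of the SCF ligases, rose by 1.38, 1.42 and 1.27, and Fbxw7, the SCF subunit that recognises cyclin E, by 1.18, 0.93 and 1.11. Ddb1, an adaptor of the CUL4 ligases, rose by 1.35, 0.99 and 1.70, and its partner Dtl fell (-1.83, -1.61 and -1.46). Of 12 measured transcription factors known to act on the 10 genes, 3 rose and 4 fell in WT cells (median -0.04), and 4 and 5 in each transgenic genotype (medians -0.40 and -0.41). Besides Myc, these were Klf2, a factor of quiescent T cells (-2.66, -2.32 and -3.18), Foxo4 (-1.91, -2.03 and -2.37) and Foxo3 (-1.80, -2.31 and -1.49), forkhead factors that can activate Cdkn1b.

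Of 19 measured targets of p53 other than Cdkn1a, 5 rose and 7 fell in WT cells (median -0.12), 7 and 4 in Gli2A Tg (median 0.40) and 3 and 5 in Gli2R Tg cells (median -0.10). Sesn2, a stress-induced regulator of growth signals, rose by 3.32, 3.12 and 3.61, and Perp, a membrane protein, by 2.27, 1.94 and 1.51. Gadd45a, a stress protein that binds cell cycle kinases, fell (-2.07, -2.94 and -2.62), as did Sesn1, a relative of Sesn2 (-1.79, -1.86 and -2.03). Of 21 measured S and M phase genes, 0 rose and 19 fell in WT cells (median -1.86), 0 and 20 in Gli2A Tg (median -1.49) and 1 and 15 in Gli2R Tg cells (median -1.23). Examples were Rrm2, a ribonucleotide reductase subunit (-4.01, -4.09 and -3.02), Cdk1, the mitotic kinase (-3.04, -2.71 and -2.26), the checkpoint kinase Bub1 (-2.79, -2.14 and -1.80) and Tk1, thymidine kinase (-2.41, -2.65 and -2.55).

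**Figure D4:**
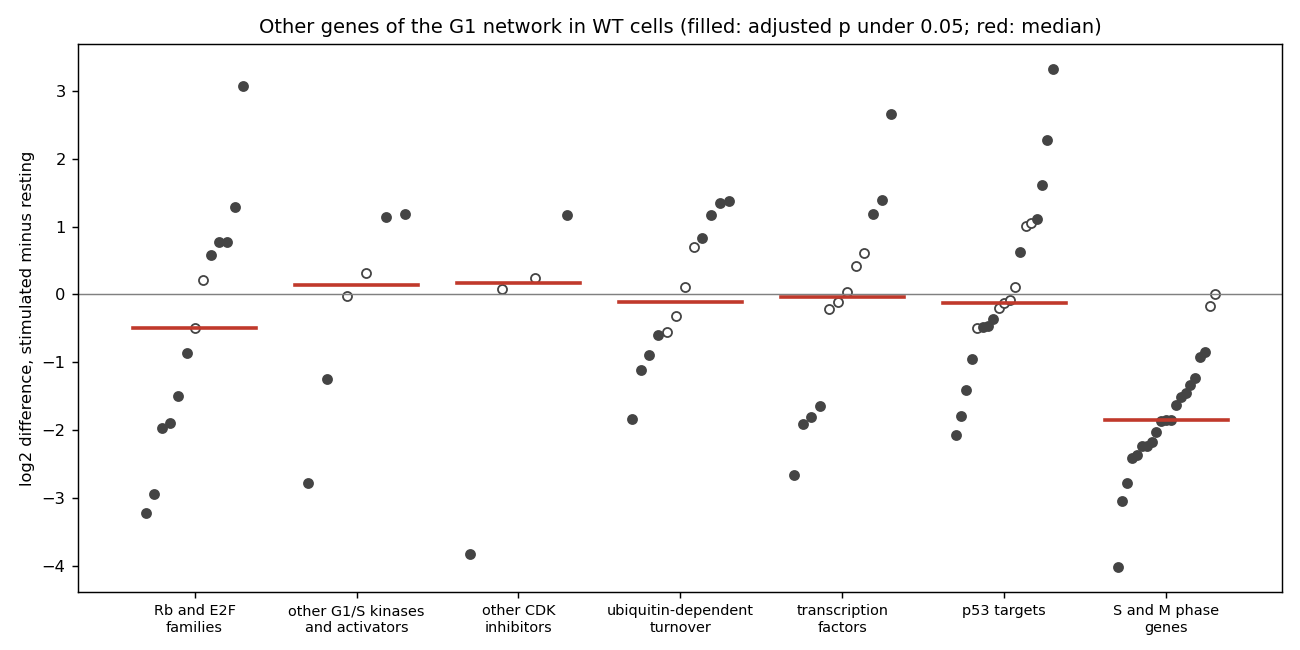
Difference between stimulated and resting WT cells (log2, vertical axis) for the other genes of the G1 network, by list; each point is a gene, filled points passed the test, and the red line is the median of the list. Genes of 6 lists lie on both sides of 0 with medians between -0.49 and 0.17, and 19 of the 21 S and M phase genes passed the test below 0.

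Between genotypes, none of the 10 genes passed the test. With limma 0 of 10 were called in each of the 6 comparisons of genotypes, which share groups with each other. At rest, an unadjusted p under 0.05 was reached by 2 of the 10 genes for Gli2A Tg against WT, 2 for Gli2R Tg against WT and 4 for Gli2A Tg against Gli2R Tg, and by 10.1%, 10.3% and 17.0% of all genes. After stimulation it was reached by 0, 1 and 0 of the 10, and by 11.4%, 9.21% and 9.16% of all genes. The share of all genes called was 0.550%, 0% and 2.40% at rest and 0.137%, 0.0440% and 0.231% after stimulation, in the same order.

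**Figure D5:**
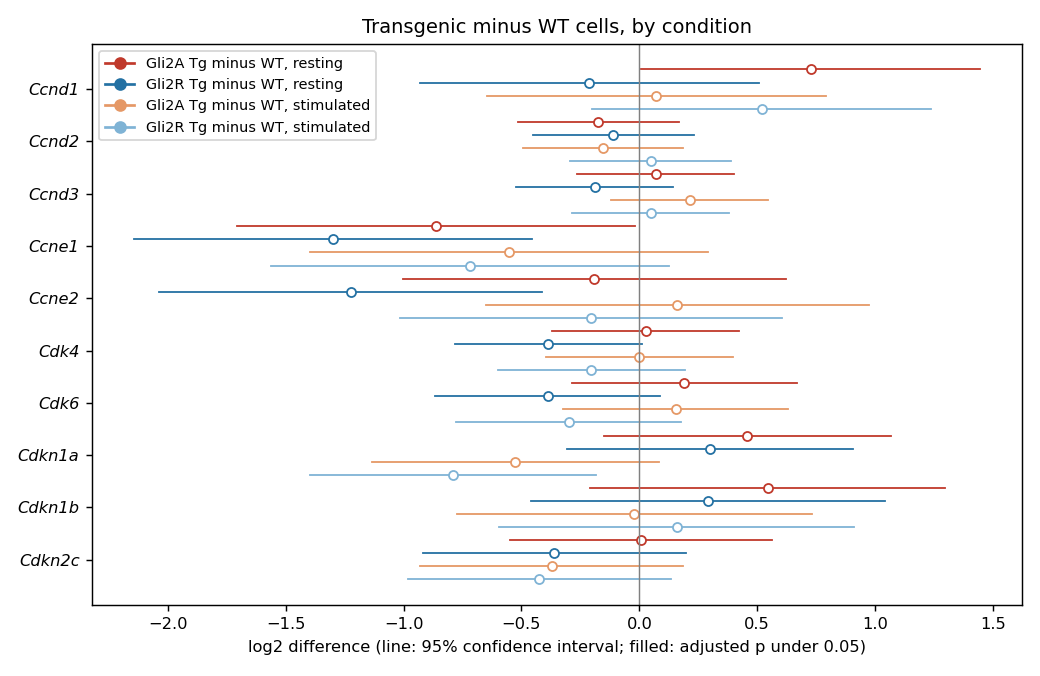
Difference between transgenic and WT cells (log2, horizontal axis) for the 10 genes at rest and after stimulation; points are estimates from 3 arrays against 3, lines are 95% confidence intervals, and open points did not pass the test. All 40 points are open, and the lowest lies at -1.30 (Ccne1, resting Gli2R Tg minus WT).

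With the probe set used for each gene, Ccnd1 was the 1 gene of the 10 whose resting Gli2A Tg arrays did not overlap those of WT cells. This was so for 15.3% of all genes. The mean of Ccnd1 was 9.45 ± 0.20 (SD, n = 3) in resting Gli2A Tg, 8.72 ± 0.21 in resting WT and 8.51 ± 0.17 in resting Gli2R Tg cells. The difference was 0.73 from WT (95% interval 0.01 to 1.45, adjusted p = 0.489) and 0.94 from Gli2R Tg cells (0.22 to 1.66, adjusted p = 0.162). The other Ccnd1 probe sets, 1417419_at and 1417420_at, differed from WT by 0.14 and 0.27. From Gli2R Tg cells they differed by 0.75 and 0.37 (limma, adjusted p 0.0883 and 0.689 over all probe sets). The summed myeloid markers were also highest in resting Gli2A Tg cells, at 146874 to 160744, against 85303.6 to 133560 in WT and 67247.5 to 86908 in Gli2R Tg cells. With their mean level as a covariate the differences in Ccnd1 were 0.27 and 0.14. That level did not overlap between resting Gli2A Tg cells and the other resting groups, so its part and that of genotype cannot be told apart. The summed intensity of 11 B cell markers did not overlap either, at 10257.6 to 13219.8 in resting Gli2A Tg cells. It was 5341.3 to 8313.5 in resting WT and 4526.55 to 6490.52 in resting Gli2R Tg cells, and its part was not tested. With the mean of the S and M phase genes, a covariate added after seeing the data, the differences in Ccnd1 were 0.70 and 1.13. The difference in the stimulation effect of Ccnd1 between Gli2A Tg and Gli2R Tg cells was -1.38 ± 0.48 (adjusted p = 0.309). Dimmer probe sets of other genes also did not overlap between resting Gli2A Tg and WT arrays and were lower in Gli2A Tg cells. They were 1416123_at (-1.15) and 1448229_s_at (-0.88) of Ccnd2 and 1438805_at (-0.66) of Ccnd3. None passed the test (limma, adjusted p 0.189, 0.270 and 0.335 over all probe sets).

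Ccne1 and Ccne2 were lower in resting Gli2R Tg than in resting WT cells, without overlap and without passing the test. The differences were -1.30 for Ccne1 (95% interval -2.14 to -0.45, adjusted p = 0.257) and -1.22 for Ccne2 (-2.04 to -0.41, adjusted p = 0.268). Cdk6 did not overlap in that comparison either with the probe set used (-0.39, adjusted p = 0.604), and 17.8% of all genes did not. The second bright Cdk6 probe set, 1455287_at, did overlap (-0.28). All 21 S and M phase genes were also lower in resting Gli2R Tg than WT cells (median -0.96, 0 called). Their mean level was 10.30 to 10.71 on the resting Gli2R Tg arrays and 11.24 to 11.54 on those of WT cells. With that mean as a covariate, added after seeing the data, the differences were -0.54 for Ccne1 and -0.19 for Ccne2. With the mean level of the myeloid markers as a covariate they were -1.20 and -1.36. The S and M phase mean did not overlap between these groups, so its part and that of genotype cannot be told apart. The summed erythroid and platelet markers moved in the same direction, at 5052.17 to 10189.6 in resting Gli2R Tg against 20374.4 to 29754.7 in WT cells, and their part was not tested.

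Gli2A Tg and Gli2R Tg cells at rest differed by 1.03 in Ccne2 (95% interval 0.22 to 1.84, adjusted p = 0.173), 0.58 in Cdk6 (0.10 to 1.06, adjusted p = 0.194) and 0.41 in Cdk4 (0.02 to 0.81, adjusted p = 0.269). Resting Gli2A Tg replicate 3 had the highest resting level of Ccne2 (10.11), Cdk4 (12.14), Cdk6 (12.32) and Cdkn2c (11.60), and of the S and M phase mean (12.04). Without this array and stimulated Gli2A Tg replicate 2, which also stood apart, the differences were 0.56 in Ccne2, 0.32 in Cdk6 and 0.25 in Cdk4. The second bright Cdk6 probe set, 1455287_at, differed by 0.10 with all arrays. With the probe set used for each gene, arrays of these groups did not overlap for Ccnd1 and Cdk6, as for 20.3% of all genes. Dimmer probe sets also without overlap and lower in Gli2A Tg cells were 1438805_at of Ccnd3 (-0.85) and 1416123_at (-0.95) and 1448229_s_at (-0.71) of Ccnd2. None passed the test (limma, adjusted p 0.0798, 0.155 and 0.223 over all probe sets). The Ccnd3 probe set used had the opposite sign (0.26). Among the other genes of the network, this comparison called 1 of 13 retinoblastoma and E2F genes (Tfdp2, an E2F partner, 1.71 higher in Gli2A Tg, adjusted p = 0.0322) and 1 of 12 transcription factors (Klf2, -1.08, adjusted p = 0.0140). It also called 2 of 19 p53 targets (Sesn2, 1.56, and Gadd45a, 0.98) and 1 of 21 S and M phase genes (Rrm2, 1.58). Of all genes, 2.40% were called in this comparison. Marker genes of other cells differed with them: 10 of 10 erythroid and platelet markers (median 1.17, 2 called) and 17 of 18 myeloid markers (median 1.10, 2 called) read higher in Gli2A Tg cells, and 9 of 10 CD4 T cell markers read lower (median -0.37, 2 called). Their part in these calls was not tested. The same network lists had 0 calls in each transgenic genotype against WT at rest.

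In stimulated cells Cdkn1a had the largest difference of the 10 genes between Gli2R Tg and WT cells. For Gli2A Tg against WT it was that of Ccne1 (-0.55), and for Gli2A Tg against Gli2R Tg that of Cdk6 (0.45), with no call. The second Ccne1 probe set, 1416492_at, gave 0.13, with the opposite sign and with overlap. The other Cdk6 probe sets, 1455287_at and 1460291_at, gave 0.22 and -0.41. For Cdkn1a, WT cells had a mean of 10.01 ± 0.13 (SD, n = 3), Gli2A Tg cells 9.48 ± 0.52 and Gli2R Tg cells 9.22 ± 0.15. The difference from WT was -0.53 in Gli2A Tg (95% interval -1.13 to 0.08, adjusted p = 0.509) and -0.79 in Gli2R Tg cells (-1.40 to -0.18, adjusted p = 0.396). The dimmer Cdkn1a probe set, 1421679_a_at, gave 0.23 and -0.14 in these comparisons, the first with the opposite sign. The rise of Cdkn1a with stimulation differed from that in WT cells by -0.98 ± 0.40 (Gli2A Tg) and -1.09 ± 0.40 (Gli2R Tg), and neither difference passed the test (adjusted p 0.430 and 0.456). The dimmer probe set gave 0.21 and -0.93 for these differences in the rise. With the probe set used for each gene, arrays of stimulated Gli2R Tg and WT cells did not overlap for 5 of the 10 (Ccnd2, Ccne1, Cdk4, Cdkn1a and Cdkn2c). The same held for 17.6% of all genes. For Gli2A Tg against WT this held for Ccne1 and Cdkn2c (18.03% of all genes), and for Gli2A Tg against Gli2R Tg for Ccnd3, Ccne2, Cdk4 and Cdk6 (16.6%). These counts depend on the probe set used. For Gli2R Tg against WT the Ccnd2 probe set used gave 0.05, while 1434745_at and 1455956_x_at gave -0.24 and -0.31, also without overlap. The Cdk4 probe set used gave -0.20, while 1422439_a_at gave 0.13 and 1422440_at -0.11, both with overlap. The second Ccne1 probe set overlapped as well (-0.51). For Gli2A Tg against Gli2R Tg, Ccnd3 gave 0.17 with the probe set used and -0.62 with 1438805_at, also without overlap. With 3 arrays against 3, an exact two-sided permutation test of a single gene cannot go below 0.1.

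The effect of stimulation itself was compared between genotypes for all 10 genes, and 0 passed the test (limma). With the probe set used for each gene, an unadjusted p under 0.05 was reached by 1 gene in each of the 3 comparisons. This was Cdkn1a for Gli2A Tg and for Gli2R Tg against WT, and Ccnd1 for Gli2A Tg against Gli2R Tg. Of all genes, 10.1%, 8.65% and 10.6% reached an unadjusted p under 0.05, and 0.0110%, 0% and 0.110% passed the adjusted test. Ccne2, which was called in WT and not in Gli2R Tg cells, had a difference in effect of 1.02 with a 95% interval of -0.13 to 2.17 (adjusted p = 0.631). The same difference for Ccne1 was 0.58 (-0.62 to 1.77, adjusted p = 0.798). A loss of the call in 1 genotype was thus not shown to be a difference between genotypes. With the 1 probe set used for each gene, the intervals were narrowest for Ccnd3 (-0.33 to 0.61 for Gli2A Tg and -0.23 to 0.71 for Gli2R Tg against WT) and Ccnd2 (-0.46 to 0.50 and -0.32 to 0.64). Some other probe sets of both genes lay outside these intervals. For Gli2A Tg against WT they gave 0.71 (1438805_at, unadjusted p = 0.0496, adjusted p = 0.517 over all probe sets) and 0.79 (1444323_at) for Ccnd3 and 0.62 (1416123_at) for Ccnd2. For Gli2R Tg against WT they gave 1.05 for Ccnd3 (1444323_at) and -0.55 for Ccnd2 (1416124_at). Probe sets of 3 further genes reached an unadjusted p under 0.05 without passing the adjusted test (limma). For Gli2R Tg against WT they were 1417419_at of Ccnd1 (0.71, adjusted p = 0.553) and 1419497_at of Cdkn1b (-0.91, adjusted p = 0.410). For Gli2A Tg against Gli2R Tg they were the same probe sets (-0.80 and 0.83, adjusted p 0.395 and 0.373) and 1421679_a_at of Cdkn1a (1.13, adjusted p = 0.498).

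The genes most like the others across the 18 arrays were named as a description, since nearly all follow the difference between resting and stimulated cells. They were Fubp1, Lta and Utp18 for Ccnd2 (Pearson r 0.988, 0.987 and 0.985), Oip5os1, Slc12a7 and Etfb for Ccnd3 (0.992, 0.989 and 0.989), and Wdr45b, Etv6 and Map3k8 for Cdkn1a (0.981, 0.980 and 0.977). For the Cdkn1b probe set used they were Midn, Kmt2e and Kmt2c (0.985, 0.984 and 0.982), and for Cdkn2c Ermp1, Rbm43 and Atad2 (0.979, 0.975 and 0.975). Ccne2 was most like Ptdss2, Uros and Fignl1 (0.963, 0.963 and 0.958). The 2 genes with the least clear stimulation difference had the lowest values: Ccne1 with Nt5dc2, Dclre1a and Stk16 (0.911, 0.871 and 0.860) and Cdk6 with Mfsd2b, Trip6 and Piga (0.896, 0.895 and 0.880). Lta encodes the cytokine lymphotoxin alpha, and Uros is an enzyme of heme synthesis.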

How the data were processed

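Total RNA of 18 samples was labelled with biotin and hybridised to Affymetrix arrays, per the labels' protocols. The authors deposited linear intensity values made with affy, per the submitters' processing notes (version not given in the sources used here); each array had a 2% trimmed mean of 500, as checked here. Probe sets with 1 gene symbol (34945) were used; 932 had several, 9160 none, and 64 were controls. Entrez numbers matched the RefSeq table for 34741, and 0 symbols changed.

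Values were taken as log2(value + 16), quantile normalized, and group means were fitted by lmFit and eBayes of limma 3.58.1 (R 4.3.3) to the 18 arrays together. Adjustment of p-values followed Benjamini and Hochberg, over 18193 genes (or all probe sets, where 1 probe set is named) and called under 0.05. They measure only the spread between these samples, which may be technical. The fit was also run on simulated arrays with independent noise and few changed genes. The stimulation data differ from that setting, so the run does not check the fit there. The 10 genes and the lists were chosen with earlier results of these data known. List genes named are the up to 4 with the largest difference in WT stimulation or those called; likeness is the 3 genes with the highest correlation.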

Additional observations from a re-analysis of the deposited data

How the results depend on the processing

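Counts of the 10 genes called were recomputed with other pseudocounts, median centring, the deposited scaling alone, other probe set rules, a filter on dim genes, trend and robust options, only the groups compared, covariates for sex and myeloid markers, and each array left out. After seeing the data, the S and M phase mean was added as a covariate, and the 2 arrays that stood apart were left out together, which gave 9, 8 and 7 called for stimulation in WT, Gli2A Tg and Gli2R Tg cells, as in the main setting. Stimulation called 8 to 9 genes in WT, 8 to 9 in Gli2A Tg and 6 to 8 in Gli2R Tg cells with 1 value a gene, and 10, 10 and 9 where a call of any probe set of a gene counted; genotype comparisons and differences in stimulation effect called 0 under every alternative. With the replicate number as a block the counts were also 9, 8 and 7 for stimulation and 0 elsewhere; same-numbered arrays deviated together in only 2 of 45 pairs (correlation over 0.1; range -0.0577 to 0.104), so the numbers were not taken to pair them. Of 2460 single-gene values under alternatives, 10 lost a call, 6 gained one and 0 reversed a call; 140 changed sign with no call on either side. Of 24 gene calls, 22 held throughout; the others were Ccnd1 in Gli2R Tg and Ccne1 in WT cells, as given above. Calls gained with 1 value a gene were Ccne2 in Gli2R Tg cells (above) and Ccne1 in Gli2A Tg cells with the deposited scaling (-1.08), with the mean of its probe sets (-1.23) or without resting Gli2A Tg replicate 1 (-1.14), and in Gli2R Tg cells with the mean of its probe sets (-1.06). Without resting Gli2A Tg replicate 3 the Ccne1 difference in Gli2A Tg cells was -0.37. Median centring moved the median of all genes to 0.13 in WT and 0.11 in Gli2A Tg stimulation, and the share of called genes that rose in WT cells was 47.2%, 51.1% and 39.3% with quantile normalization, median centring and the deposited scaling. The cause of these changes was not tested.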
